A study of Mus musculus with 19 samples.

Results

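Interferon-stimulated genes are the genes that cells switch on after they sense interferon, and their products detect viral nucleic acids, block viral entry and replication, and tune the interferon signal itself. Here 35 of them were followed by ATAC-seq, an assay in which a transposase cuts and tags open chromatin so that the reads piling up in a region measure its accessibility. A region (peak) was assigned to a gene when its centre lay in the gene body or within 10000 bases of either gene end. By this rule 84 of the 90154 peaks of the series belonged to the interferon-stimulated genes, and 33 of the 35 genes had at least 1 peak. Oas1a and Oas3 had none. Among the 84 peaks, 7 lay in the windows of more than 1 of the genes and 9 also had the start of another protein-coding gene within 1000 bases.

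The cells were wild type C57BL/6J neural stem cells taken at embryonic day 14 from the ventricular zone of single mouse brains and grown as free-floating neurospheres (NSPs), then plated and differentiated towards astrocytes in 10% fetal bovine serum. The 19 libraries comprised 3 of undifferentiated NSPs, 3 after 24 h and 3 after 72 h of differentiation, 3 after 24 h and 3 after 72 h with 50 ng/ml of the inflammatory cytokine tumour necrosis factor (TNF), and 4 after 1 week without TNF. Each library was made from 50000 cells. The labels do not say whether replicates came from separate brains, so p-values measure the spread between these libraries, which may be technical.

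Interferons α and β bind the receptor made of Ifnar1 and Ifnar2, whose kinases Jak1 and Tyk2 phosphorylate STAT proteins such as Stat2. A complex that holds Stat2 and Irf9 enters the nucleus and binds the interferon-stimulated response element (ISRE), whereas the interferon γ response runs through the γ-activated site (GAS). TNF signals mainly through NF-κB and AP-1, and in several cell types it also leads to interferon-β and Irf1 production. Astrocytes can mount an interferon response in infected or inflamed brain.

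Of the 35 genes, 26 had a reference promoter sequence (RefSeq, GRCm38.p6, 250 bases before to 50 bases after the start). The 9 others were Dhx58, Mx1, Mx2, Oas2, Parp14, Parp9, Rtp4, Usp18 and Zbp1. The ISRE core, searched as TTTCNNTTT on both strands, occurred in the promoters of 20 of the 26 genes (76.9%), against 11.3% of 17491 genes in the same table. GAS letters, searched as TTCNNNGAA, occurred in 9 (34.6%, against 8.92%), AP-1 letters, TGANTCA, in 7 (26.9%, against 8.12%), and NF-κB letters, GGGNNTTTC, in 3 (11.5%, against 4.96%). Matches of GAS and ISRE letters overlapped in Ifitm3 and Bst2. A match is a run of letters and not a measured binding site.

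The 250 bases before the start are shown for 6 genes, 5′ to 3′ on the strand of the gene, with every match to these motifs in capitals. The first 4 are genes with a peak near the start that was more accessible with TNF at 24 h or 72 h, and the last 2 have a peak over the start that passed the test at neither time. Ifit1, on the plus strand at chr19:34640639-34640888, holds 2 ISRE cores. Xaf1, on the plus strand at chr11:72301379-72301628, holds 1 AP-1 match followed by 1 ISRE core. Gbp2, on the plus strand at chr3:142620413-142620662, holds an NF-κB match on the opposite strand, an AP-1 match and an ISRE core. Oasl2, on the plus strand at chr5:114896684-114896933, holds no match to the 4 motifs. Ifit3, on the plus strand at chr19:34583279-34583528, holds 2 ISRE cores and 1 AP-1 match. Stat2, on the plus strand at chr10:128270248-128270497, holds 1 ISRE core.
Ifit1: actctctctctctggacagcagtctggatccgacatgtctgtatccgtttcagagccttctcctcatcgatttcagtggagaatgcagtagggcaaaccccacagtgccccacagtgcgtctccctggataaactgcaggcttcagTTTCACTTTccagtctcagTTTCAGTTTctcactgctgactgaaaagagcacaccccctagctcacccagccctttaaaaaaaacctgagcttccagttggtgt
Xaf1: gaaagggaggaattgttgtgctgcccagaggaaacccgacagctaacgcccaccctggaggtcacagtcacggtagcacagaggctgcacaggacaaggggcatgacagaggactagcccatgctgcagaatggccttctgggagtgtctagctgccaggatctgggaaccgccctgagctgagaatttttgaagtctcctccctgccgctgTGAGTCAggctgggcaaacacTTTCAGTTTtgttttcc
Gbp2: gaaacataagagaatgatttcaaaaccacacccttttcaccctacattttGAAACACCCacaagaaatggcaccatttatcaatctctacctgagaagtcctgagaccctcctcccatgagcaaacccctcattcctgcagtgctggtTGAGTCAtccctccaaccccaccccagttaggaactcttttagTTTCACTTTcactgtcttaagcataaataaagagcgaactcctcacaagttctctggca
Oasl2: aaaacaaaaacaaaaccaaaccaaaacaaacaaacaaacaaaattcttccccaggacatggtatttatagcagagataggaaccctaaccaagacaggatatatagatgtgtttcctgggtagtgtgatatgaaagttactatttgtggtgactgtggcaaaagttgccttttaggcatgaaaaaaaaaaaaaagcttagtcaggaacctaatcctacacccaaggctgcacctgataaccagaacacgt
Ifit3: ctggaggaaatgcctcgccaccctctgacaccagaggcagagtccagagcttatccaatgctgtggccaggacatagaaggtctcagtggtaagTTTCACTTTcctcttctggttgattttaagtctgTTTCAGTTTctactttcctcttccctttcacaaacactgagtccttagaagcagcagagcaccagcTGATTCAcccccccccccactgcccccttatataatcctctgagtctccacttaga
Stat2: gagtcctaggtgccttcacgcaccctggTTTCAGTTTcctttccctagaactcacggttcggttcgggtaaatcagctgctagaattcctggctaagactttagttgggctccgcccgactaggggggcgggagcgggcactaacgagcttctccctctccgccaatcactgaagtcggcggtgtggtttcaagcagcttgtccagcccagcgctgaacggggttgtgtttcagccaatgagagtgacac

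Values below are reads in a peak divided by the library's size factor, as deposited, and log2 changes are on the log2(value + 1) scale with their standard errors. A peak was called when its adjusted p was under 0.05 (limma-trend, Benjamini-Hochberg over the 88919 peaks kept by a low-count filter). All 84 peaks of the interferon-stimulated genes passed that filter. Libraries held 9640256 to 39349111 reads in peaks. NSP replicate 1 stood apart, with a Spearman correlation over peaks of 0.926 and 0.916 to the other NSP libraries, which correlated at 0.983 with each other. The names of the 72 h, 72 h TNF and 1 week libraries carry the tag Luc and those of the other groups do not, so for 72 h against 24 h and for 72 h or 1 week against NSPs the tag and the time cannot be told apart. The TNF comparisons, 24 h against NSPs and 1 week against 72 h lie within a tag. Peaks within 1000 bases of the start were present for 5 of 8 astrocyte markers (not Slc1a2, Aqp4 or Slc14a1), 6 of 6 neural stem and progenitor markers, 3 of 5 neuron, 1 of 4 oligodendrocyte, 2 of 7 microglia and macrophage, 0 of 3 endothelial and 1 of 3 fibroblast markers. Of the microglial markers Aif1, Cx3cr1, Csf1r, Ptprc and Itgam had none. In such bulk samples a change in the share of cells with an open region and a change within each cell cannot be told apart.

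At 24 h with TNF, 9 of the 84 peaks were more accessible (10.7%) and 4 less accessible (4.76%), where over all peaks tested 7.06% were higher and 3.53% lower. At 72 h, 10 were higher (11.9%) and 4 lower (4.76%), where over all peaks 6.24% were higher and 5.55% lower. Under a scaling by total reads the counts at 72 h were 9 and 5, and over all peaks 4216 and 6594 in place of 5551 and 4932. The median log2 change over the 84 peaks was 0.07 at 24 h and 0.14 at 72 h, against −0.03 and 0.03 over all peaks. The higher peaks belonged to 9 genes at 24 h and 11 genes at 72 h. Leaving out 1 library of a comparison at a time lowered the count of higher peaks to between 4 and 6 at 24 h and between 6 and 8 at 72 h, whichever of the 6 libraries it was, while over all peaks it fell from 6274 to between 3860 and 5629 and from 5551 to between 3602 and 4261.

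Close to gene starts, a larger share of peaks was higher with TNF than over all gene-start peaks. Of 22 peaks within 1000 bases of a start in the reference table, 4 (18.2%) were higher with TNF at 24 h and 4 at 72 h, and 0 were lower by limma-trend at either time. Those higher at 24 h lay at Ifit1, Xaf1 and Gbp2, the last at its peaks 32 and 833 bases upstream. With 1 library left out, the first Gbp2 call was kept in 0 of 6 fits and the second in 1 of 6. Those higher at 72 h lay at Ifit1, Xaf1, Oasl2 and Ifih1. Over all 10854 gene-start peaks, 1.46% were higher and 0.442% lower at 24 h, and 2.98% and 0.866% at 72 h. With lower calls this rare, 0 of 22 does not set these genes apart. When the genes without a reference strand are added, 31 peaks lay within 1000 bases of a start or gene end, of which 4 were higher at 24 h and 5 at 72 h, and 0 were lower by limma-trend, edgeR or DESeq2. By edgeR and by DESeq2 3 were higher at 24 h and 5 at 72 h. With 1 library left out 1 to 2 of the 31 remained higher at 24 h and 2 to 4 at 72 h, and the same range over all gene-start peaks was not computed. The median log2 change of the 22 peaks was 0.20 at 24 h and 0.24 at 72 h, against −0.04 and 0.13 over all gene-start peaks.

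**Figure D1:**
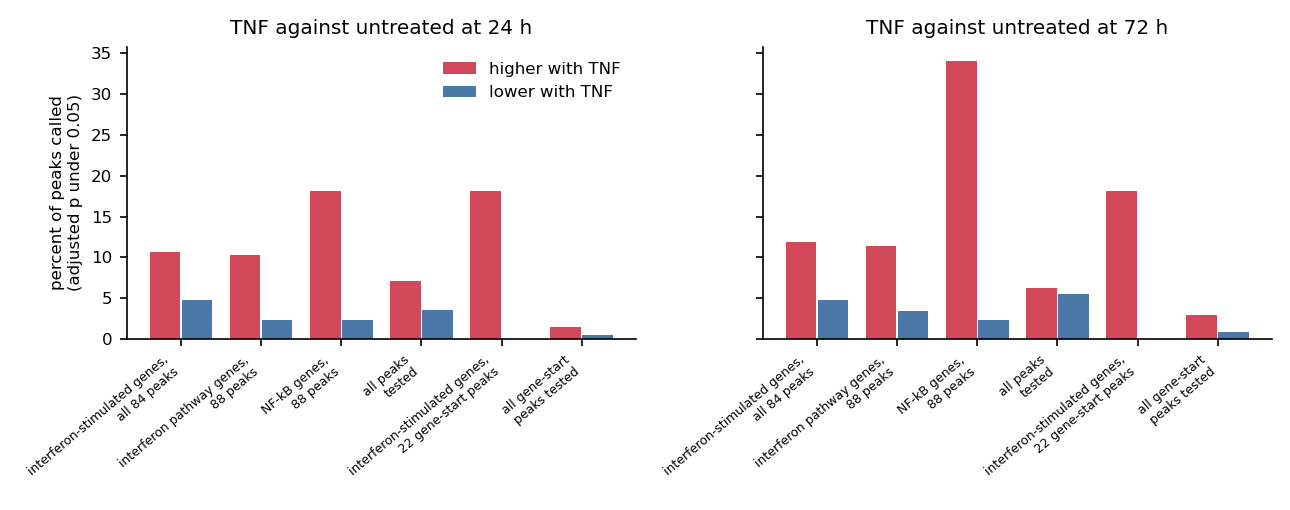
Percent of peaks called higher (red) or lower (blue) with TNF at 24 h (left) and 72 h (right) for the interferon-stimulated genes, for 2 reference gene lists, for all peaks tested and for gene-start peaks. At gene starts 18.2% of the peaks of the interferon-stimulated genes were higher at each time and none lower. Over all gene-start peaks 1.46% and 2.98% were higher and 0.442% and 0.866% lower.

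At both times, 5 peaks were more accessible with TNF and 2 were less accessible. No peak was called in opposite directions. The 5 were 55.6% of those higher at 24 h and 50% of those higher at 72 h. Of the 20 peaks called at either time, 17 had the same sign at both, and of all 84 peaks 53 did. The same overlaps were not computed over all peaks, so these counts describe the 84 peaks and do not set them apart. In the test of the difference between the TNF changes at 72 h and 24 h, 0 of the 84 peaks passed by limma-trend, edgeR or DESeq2, and 6 had an unadjusted p under 0.05 by limma-trend. Over all peaks that test called 0% in the higher direction and 0.00112% in the lower. A call at a single time is therefore not shown to be specific to that time.

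**Figure D2:**
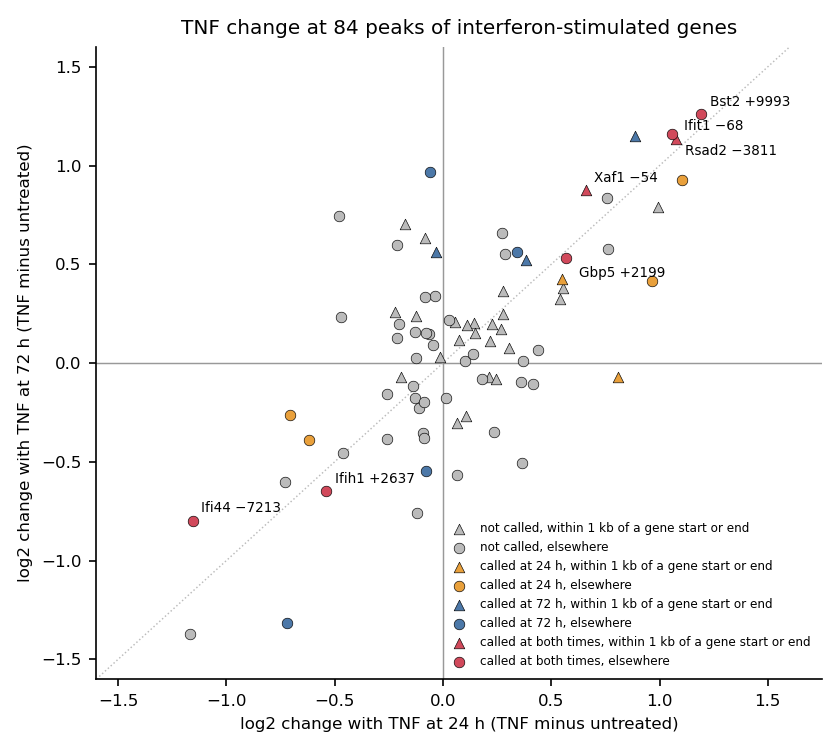
Log2 change with TNF at 24 h (horizontal) against that at 72 h (vertical) for each of the 84 peaks, coloured by call, with triangles for peaks within 1000 bases of a gene start or end and circles elsewhere. The 5 peaks higher at both times lie in the upper right, led by Bst2 (1.19 and 1.26), and Ifi44 and Ifih1 in the lower left.

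Ifit1, whose product binds incompletely capped viral RNA, had a peak centred 68 bases upstream of its start (chr19:34640571-34641071), over the 2 ISRE cores printed above and within 1000 bases of the start of another gene, Ifit1bl2. Its values were 53.5, 42.8 and 30.8 in the untreated 24 h libraries and 94.6, 85.1 and 85.2 with TNF. At 72 h they were 61.8, 70.6 and 79.0 untreated and 175, 143 and 149 with TNF. Every TNF library lay above every untreated library of its time. The log2 changes were 1.07 ± 0.22 (adjusted p = 0.00125, limma-trend, n = 3 and 3) and 1.14 ± 0.22 (adjusted p = 0.000696), and both calls held without any 1 library.

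Ifit2 and Ifit3, which like Ifit1 belong to a family that inhibits viral RNA translation, gave no TNF call. The peak 35 bases upstream of the Ifit3 start held 15.9, 13.3 and 13.5 untreated and 37.1, 21.5 and 31.2 with TNF at 24 h. At 72 h it held 27.0, 22.7 and 31.9 untreated and 40.2, 59.1 and 44.4 with TNF. The tests missed the threshold at both times (log2 change 0.99 ± 0.34, adjusted p = 0.0577, and 0.79 ± 0.34, adjusted p = 0.137, limma-trend). Its TNF libraries lay above every untreated library of their time. At the Ifit2 start, the peak 68 bases upstream held 293, 348 and 259 untreated and 279, 257 and 244 with TNF at 24 h, and the ranges at 72 h were 302 to 361 and 293 to 349, so the groups overlapped at both times. Over the 10 IFIT peaks, 1 was higher at each time (10%, against 7.06% and 6.24% over all peaks) and 0 were lower by limma-trend (against 3.53% and 5.55%).

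Xaf1, which antagonises the apoptosis inhibitor XIAP, had its peak 54 bases upstream of the start (chr11:72301325-72301825). Untreated libraries held 120, 123.9 and 112 at 24 h and TNF libraries 197, 193 and 173. At 72 h untreated libraries held 138, 114 and 167 and TNF libraries 260, 232 and 269. The groups did not overlap at either time, with log2 changes of 0.66 ± 0.18 (adjusted p = 0.0145, limma-trend) and 0.87 ± 0.18 (adjusted p = 0.00125). The call at 24 h was lost without untreated replicate 3 or without TNF replicate 1 or 2 (lowest log2 change 0.62, largest adjusted p 0.0607), and the call at 72 h held without any 1 library.

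Rsad2 (viperin, an enzyme that makes a chain-terminating nucleotide) and the neighbouring nucleotide kinase gene Cmpk2 share a peak 3811 bases upstream of the Rsad2 start (chr12:26460013-26460513). Untreated libraries held 14.8, 17.7 and 11.1 at 24 h and 39.9, 25.1 and 26.8 at 72 h. With TNF they held 25.6, 33.4 and 34.3 at 24 h and 58.1, 70.9 and 76.8 at 72 h, above every untreated library of the same time. The log2 changes were 1.06 ± 0.35 (adjusted p = 0.0473, limma-trend) and 1.16 ± 0.35 (adjusted p = 0.0264). The 24 h call was lost whichever of the 6 libraries was left out (adjusted p 0.0534 to 0.156), and by edgeR (adjusted p = 0.0545), and the 72 h call without untreated replicate 2 or 3 or TNF replicate 2 or 3 (adjusted p up to 0.105). The peaks over the starts of both genes did not pass. At Rsad2 (21 bases downstream) the log2 changes were −0.12 ± 0.22 and 0.24 ± 0.22, and at Cmpk2 (64 bases downstream) 0.14 ± 0.13 and 0.20 ± 0.13.

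Bst2 (tetherin, which holds budding virions at the cell surface) had the largest rise at both times, at a peak 9993 bases beyond its start (chr8:71527070-71527888). Untreated libraries held 66.0, 54.6 and 80.1 at 24 h and TNF libraries 156, 156 and 145. At 72 h untreated libraries held 75.9, 58.6 and 77.8 and TNF libraries 164, 154 and 194. The log2 changes of 1.19 ± 0.20 (adjusted p = 0.000136, limma-trend) and 1.26 ± 0.20 (adjusted p = 6.5e-05) held without any 1 library. In NSPs the same peak held 163, 98.9 and 129, so its untreated 24 h level was lower than in NSPs (log2 change −0.94 ± 0.20, adjusted p = 0.000282), and the TNF level lay within the NSP range at 24 h. This peak is beyond the gene, and its assignment to Bst2 rests on distance alone.

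**Figure D3:**
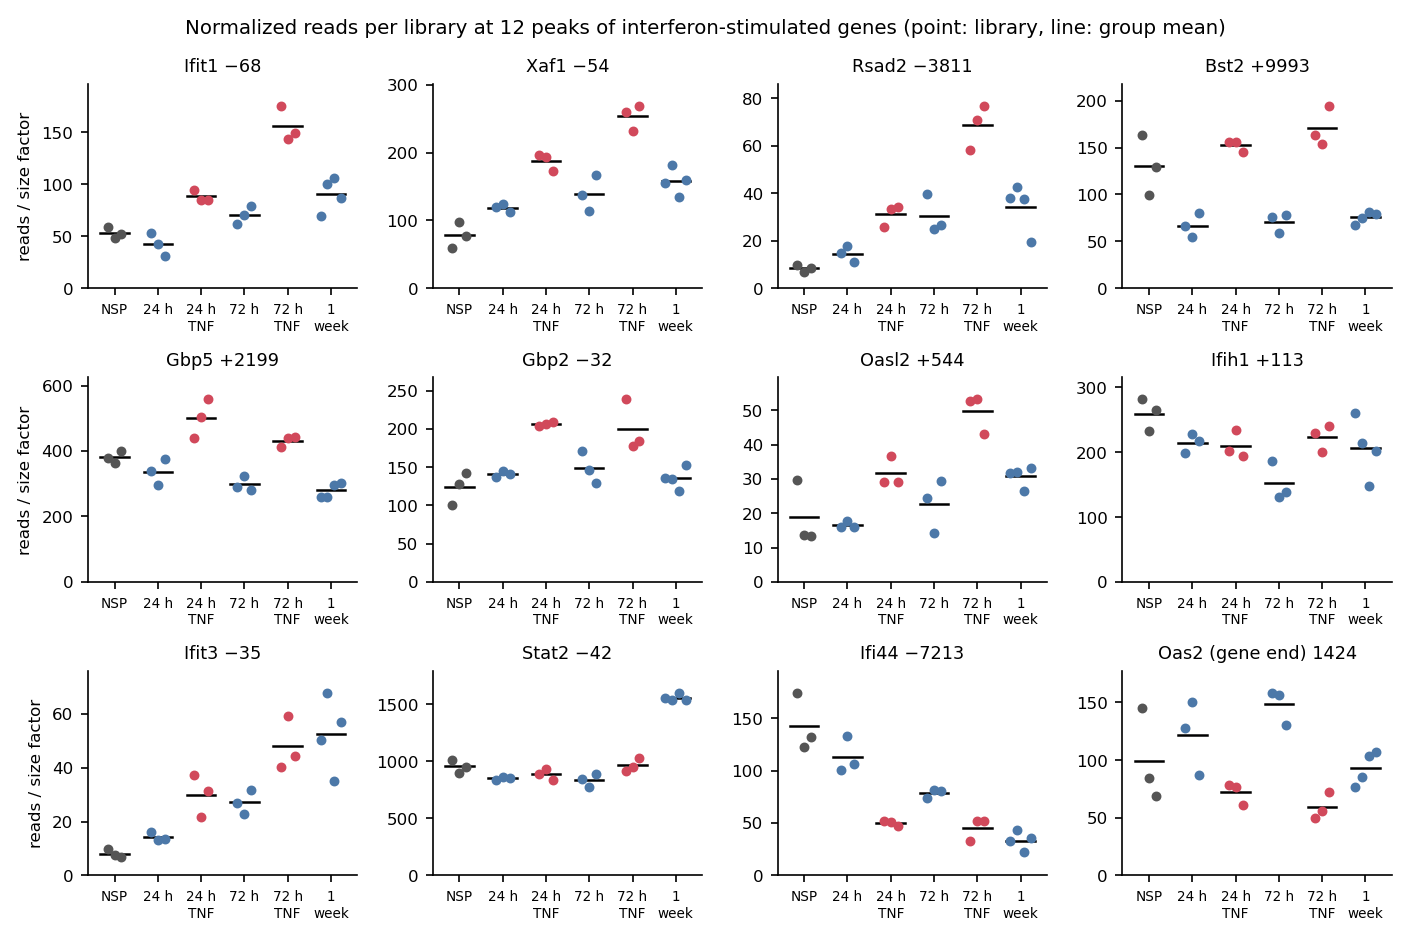
Reads divided by size factor per library (points) and group means (lines) for 12 peaks in 6 groups, with TNF libraries in red, NSPs in grey and the other groups in blue. TNF libraries lie above untreated libraries of the same time at Ifit1, Xaf1, Rsad2 and Bst2, and below them at Ifi44, while at Stat2 the 1 week libraries stand above all others.

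The guanylate-binding proteins, interferon-induced GTPases that attack the membranes around intracellular pathogens, gave 3 higher peaks of 11 at 24 h, 2 at 72 h, and 0 lower peaks by limma-trend, where over all peaks 7.06% and 6.24% were higher and 3.53% and 5.55% lower. The peak 2199 bases into Gbp5 (chr3:142498883-142499383) was higher at both times. Its values went from 338, 297 and 376 to 439, 504 and 558 at 24 h and from 291, 324.2 and 282 to 411, 440 and 443 at 72 h, without overlap, with log2 changes of 0.57 ± 0.12 (adjusted p = 0.00247, limma-trend) and 0.53 ± 0.12 (adjusted p = 0.00445). Both calls held without any 1 library.

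The Gbp2 start peak, 32 bases upstream (chr3:142620381-142620881), held 137, 145 and 142 untreated and 204, 207 and 210 with TNF at 24 h (log2 change 0.55 ± 0.16, adjusted p = 0.0264, limma-trend). At 72 h it held 171, 146 and 129 untreated and 239, 177 and 185 with TNF, a change of 0.43 ± 0.16 that did not pass (adjusted p = 0.0905). A second Gbp2 peak, 833 bases upstream, passed at 24 h (0.81 ± 0.26, adjusted p = 0.0419) although its ranges of 29.6 to 80.1 and 78.7 to 99.7 overlapped. The first of these calls was lost without any 1 of the 6 libraries (adjusted p 0.0566 to 0.0879), and the second without any library but untreated replicate 3 (log2 change 0.43 to 1.14 over the 6), as well as by edgeR (adjusted p = 0.077) and DESeq2 (adjusted p = 0.0561).

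The peak 2028 bases upstream of Gbp7, which also lies in the Gbp5 window, passed at 72 h with TNF libraries at 580, 607 and 581 against 444, 343 and 414 (log2 change 0.56 ± 0.12, adjusted p = 0.00157, limma-trend). At 24 h its values were 523, 531 and 569 against 437, 434 and 409, and the change of 0.34 ± 0.12 missed the threshold (adjusted p = 0.0608). At the Gbp3 start (130 bases upstream) the changes were 0.54 ± 0.18 (adjusted p = 0.054) and 0.32 ± 0.18 (adjusted p = 0.274).

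Among the RNA sensors, Ifih1 (MDA5, the sensor of long double-stranded RNA) had 4 peaks that did not move together. The start peak, 113 bases into the gene (chr2:62645892-62646392), held 187, 132 and 139 at 72 h untreated and 230, 201 and 240 with TNF (log2 change 0.56 ± 0.17, adjusted p = 0.0281, limma-trend), and at 24 h the groups overlapped (−0.03 ± 0.17). The peak 2637 bases into the gene fell at both times, from 257, 227 and 236 to 140, 185 and 173 and from 121, 115 and 102 to 91.2, 59.1 and 67.2, with log2 changes of −0.54 ± 0.18 (adjusted p = 0.0471) and −0.65 ± 0.18 (adjusted p = 0.0141). Another peak, beyond the gene and 58432 bases from its start, rose at 24 h from 17.1, 22.1 and 24.6 to 54.8, 35.6 and 50.9 (1.10 ± 0.36, adjusted p = 0.044). Of these calls, the start peak's was lost without untreated replicate 2 or 3 or TNF replicate 1 or 3 (log2 change 0.47 to 0.72 over the 6 libraries), the fall at 24 h without any 1 library (−0.62 to −0.42), the fall at 72 h without untreated replicate 1 or TNF replicate 2 or 3 (−0.82 to −0.51), and the distal rise without any library but TNF replicate 2 (0.96 to 1.29).

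Dhx58 (LGP2, a helicase that modulates MDA5 and RIG-I) had a peak in its gene body, 1660 bases from the nearer gene end, at 89.9, 106 and 94.8 untreated and 142, 189 and 255 with TNF at 24 h. The log2 change was 0.97 ± 0.19 (adjusted p = 0.000931, limma-trend), and the call held without any 1 library. At 72 h the untreated libraries had risen to 158, 242 and 213 and the TNF libraries held 259, 273 and 274 (0.42 ± 0.19, adjusted p = 0.17). The edgeR and DESeq2 fits also called the 24 h change. Start or gene-end peaks of Ddx58 (RIG-I), Eif2ak2 (PKR, the kinase that halts translation on double-stranded RNA) and Zbp1 (a sensor of left-handed nucleic acid) did not pass. The Eif2ak2 peak, 22 bases upstream of the start and near that of Gm26637 as well, changed by 0.11 ± 0.12 and 0.19 ± 0.12, and the Ddx58 peak, 427 bases into the gene, by −0.22 ± 0.20 and 0.26 ± 0.20.

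In the OAS family, whose enzymes make the oligoadenylates that activate RNase L, the Oasl2 peak 544 bases into the gene (chr5:114897228-114897728) was higher at 72 h. It held 24.4, 14.4 and 29.3 untreated and 52.7, 53.2 and 43.2 with TNF (log2 change 1.15 ± 0.35, adjusted p = 0.0276, limma-trend). At 24 h the values were 15.9, 17.7 and 16 untreated and 29.2, 36.6 and 29.1 with TNF, also without overlap (0.89 ± 0.35, adjusted p = 0.106). The 72 h call was lost without any library but untreated replicate 3 (0.86 to 1.35). A peak in the Oas2 gene body, 1424 bases from the nearer gene end, went the other way, from 158, 157 and 130 to 50.1, 56.2 and 72.0 at 72 h (−1.32 ± 0.24, adjusted p = 0.000418), and the call held without any 1 library. At 24 h it changed by −0.72 ± 0.24 (adjusted p = 0.0529).

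Of the remaining genes, Mx2, of the Mx GTPase family, passed at 72 h at a peak 951 bases from a gene end. Its TNF libraries held 488, 347 and 402 against 266, 304 and 283 (log2 change 0.52 ± 0.14, adjusted p = 0.013, limma-trend). That call was lost without untreated replicate 1 or TNF replicate 1 (0.39 at the lowest). A peak in the gene body of Parp14, an ADP-ribosyltransferase, passed at 72 h at 80.5, 97.6 and 67.2 against 32.2, 35.9 and 58.6 (0.97 ± 0.29, adjusted p = 0.026), and its call was lost without untreated replicate 1 or 2 or TNF replicate 1 or 2 (0.80 to 1.23 over the 6 libraries). Both groups of libraries were fully separated at these 2 peaks.

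The lower peaks lay away from gene starts. Lower calls at starts were rare over all genes as well (0.442% at 24 h and 0.866% at 72 h). The peak 7213 bases upstream of Ifi44, an antiviral protein, fell from 100, 133 and 106 to 52.2, 50.6 and 46.7 at 24 h and from 73.3, 81.3 and 80.3 to 33.1, 51.7 and 51.6 at 72 h. The log2 changes were −1.16 ± 0.25 (adjusted p = 0.00196, limma-trend) and −0.80 ± 0.25 (adjusted p = 0.0309), the second lost without any 1 untreated library or TNF replicate 1 (−0.90 to −0.59 over the 6). Near Ifi35, peaks 14359 and 6466 bases beyond the start were lower at 24 h (−0.62 ± 0.16, adjusted p = 0.0118) and at 72 h (−0.55 ± 0.16, adjusted p = 0.0264) respectively. A peak 7824 bases beyond the start of Isg15, the ubiquitin-like modifier, was lower at 24 h (−0.71 ± 0.23, adjusted p = 0.0454). Of these 3 calls, the first was lost without untreated replicate 1 or 3 or TNF replicate 2 (−0.72 to −0.48), the second without any library but TNF replicate 2 (−0.66 to −0.43), and the third without any 1 library (−0.82 to −0.64) and by DESeq2. The Isg15 peak and the Ifi35 peak at 14359 bases lie beyond the ends of these genes and were assigned by distance alone.

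In all, 24 peaks within 1000 bases of a start or gene end passed at neither time, among them those of Stat2, Usp18, Isg20 and the shared start region of Parp9 and Dtx3l. Their log2 changes ran from −0.22 to 0.99 at 24 h (median 0.15, 18 of 24 above 0) and from −0.30 to 0.79 at 72 h (median 0.20, 19 of 24 above 0). Over all gene-start peaks 39.3% were above 0 at 24 h (median −0.04) and 77.7% at 72 h (median 0.13). The 19 of 24 at 72 h therefore does not set these genes apart. Stat2, the interferon-specific STAT, was strongly accessible at its start (42 bases upstream) whatever the treatment, with 839 to 857 untreated and 836 to 931 with TNF at 24 h and 775 to 885 and 911 to 1031 at 72 h. Its log2 changes were 0.06 ± 0.10 (adjusted p = 0.812, limma-trend) and 0.21 ± 0.10 (adjusted p = 0.168). The peak 18 bases from a gene end of Usp18, which removes Isg15 from proteins and restrains the interferon receptor, changed by 0.23 ± 0.13 and 0.20 ± 0.13.

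The promoter letters can be set beside these calls for the 16 genes with both a reference promoter and a peak within 1000 bases of its start. Of 12 genes with an ISRE core, 4 had a start peak that was higher with TNF at either time (Gbp2, Ifih1, Ifit1 and Xaf1), and of 4 genes without one, 1 did (Oasl2). Of 2 genes with NF-κB letters 1 was among them (Gbp2), of 4 with AP-1 letters 2 (Gbp2 and Xaf1), and of 3 with GAS letters none. The Ifih1 core lies 33 bases after the start. These counts are a description of 16 genes and were not tested.

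The pathway that drives these genes was measured with the same rule. Over 88 peaks of 30 interferon ligand, receptor, kinase, transcription factor, adaptor and inhibitor genes outside the list, 26 of which had a peak, TNF gave 9 higher (10.2%) and 2 lower (2.27%) peaks at 24 h, against 7.06% and 3.53% over all peaks, and 10 higher (11.4%) and 3 lower (3.41%) at 72 h, against 6.24% and 5.55% (median log2 changes 0.08 and 0.13). The counts by role that follow stand beside the same shares. For single peaks of these genes and of the NF-κB genes below, the effect of leaving out 1 library was not examined. Of 24 peaks of the factors, 4 were higher and 0 lower by limma-trend at 24 h, and 5 higher and 1 lower, near Irf7, at 72 h. The start peak of Irf9, which binds DNA together with Stat2, passed at neither time (0.24 ± 0.18 and 0.02 ± 0.18). Irf8, a factor of myeloid cells, had 2 peaks. The one nearest a start, 93 bases upstream, passed at neither time. The other, 412 bases from a start, rose from 7.97, 14.8 and 22.2 to 31.8, 58.2 and 70.6 at 24 h. At 72 h it rose from 19.3, 29.9 and 14.0 to 86.7, 139 and 109. The log2 changes were 1.80 ± 0.45 (adjusted p = 0.00788, limma-trend) and 2.39 ± 0.45 (adjusted p = 0.000543). Irf5 rose at a peak 261 bases from its start (0.75 ± 0.22, adjusted p = 0.0279, and 0.91 ± 0.22, adjusted p = 0.00657). Irf1, a factor that NF-κB can induce, rose at its start at 72 h (100 bases, 0.58 ± 0.13, adjusted p = 0.00321). An Irf1 peak 7979 bases from the start rose at both times (0.50 ± 0.11, adjusted p = 0.0023, and 0.56 ± 0.11, adjusted p = 0.000693, limma-trend). So did an Irf2 peak 103150 bases from its start (0.49 ± 0.11, adjusted p = 0.00229, and 0.43 ± 0.11, adjusted p = 0.00579).

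Of the 3 ligand peaks 1 was higher at each time. It lies beyond the end of the interferon-β gene, Ifnb1, and was assigned to it by distance alone. The peak 722 bases upstream of the Ifnb1 start passed at neither time. The peak that rose, 6972 bases from the start, went from 17.1, 14.8 and 14.8 to 32.7, 26.9 and 51.9 at 24 h. At 72 h it went from 16.7, 33.5 and 14.0 to 58.1, 69.5 and 75.6. All TNF libraries lay above the untreated ones at both times, with log2 changes of 1.16 ± 0.35 (adjusted p = 0.0307, limma-trend) and 1.71 ± 0.35 (adjusted p = 0.00139). Of the kinases, Jak1 rose at a peak 62364 bases from its start (1.88 ± 0.27, adjusted p = 2.15e-05, and 1.04 ± 0.27, adjusted p = 0.0107). Among the 14 receptor peaks, calls numbered 1 at 24 h (a rise) and 4 at 72 h (3 rises and 1 fall). Ifngr2 rose at its start at 72 h (0.76 ± 0.15, adjusted p = 0.00114). A peak 15995 bases from the Ifnar1 start rose at both times (0.60 ± 0.20, adjusted p = 0.0454, and 0.67 ± 0.20, adjusted p = 0.0247), whereas another, 4726 bases from it, fell at 72 h from a mean of 312 to 172 (−0.86 ± 0.26, adjusted p = 0.0304). A peak 9195 bases from the Ifnar2 start rose at 72 h (0.55 ± 0.17, adjusted p = 0.0375). At the 15 adaptor peaks 1 was higher and 1 lower at 24 h, both near Ticam1. Of the 15 inhibitor peaks 1 was higher and 1 lower at 24 h, and by limma-trend 0 higher and 1 lower at 72 h. A Socs3 peak 6844 bases from its start rose at 24 h (0.75 ± 0.15, adjusted p = 0.00104, limma-trend). A Pias1 peak 69756 bases from its start fell at both times (−1.31 ± 0.40, adjusted p = 0.0301, and −1.49 ± 0.40, adjusted p = 0.0123).

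For scale, 88 peaks of 20 NF-κB components and targets gave 16 higher (18.2%) and 2 lower (2.27%) at 24 h and 30 higher (34.1%) and 2 lower (2.27%) at 72 h, with median log2 changes of 0.25 and 0.28. Cxcl10, a chemokine that responds to both NF-κB and interferon, changed at its start by 1.83 ± 0.22 (adjusted p = 1.46e-06, limma-trend) at 24 h and 2.12 ± 0.22 (adjusted p = 1.4e-07) at 72 h, where the largest called rise at an interferon-stimulated gene was 1.26, at Bst2, and the largest called fall −1.32, at Oas2, both at 72 h. The lists differ in size and genes and were not tested against each other.

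Some summed marker levels also differed with TNF. The summed level of start peaks of the microglia and macrophage markers was 235 to 269 untreated and 237 to 268 with TNF at 24 h, and 287 to 324.3 and 273 to 364 at 72 h, overlapping at both times. That of the 5 astrocyte markers was lower with TNF, at 951 to 1101 against 1195 to 1360 at 24 h and 902 to 925 against 1303 to 1372 at 72 h. Over all 51 peaks of the 8 astrocyte markers, however, TNF gave 6 rises and 1 fall at 24 h and 6 rises and 3 falls at 72 h (median log2 changes −0.04 and −0.01), so the fall of the summed start peaks was not shared by most called peaks of these genes. That of the 6 neural stem and progenitor markers was 2713 to 2827 against 2621 to 3018 at 24 h and, higher with TNF, 2747 to 3056 against 2337 to 2696 at 72 h. The part of these differences in the TNF changes was not tested.

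In the course without TNF more of these peaks were called than with TNF. The same held over all peaks (41982 called from NSPs to 24 h, 9410 with TNF at 24 h). From NSPs to 24 h, 14 of the 84 were higher (16.7%) and 13 lower (15.5%), where over all peaks 24.2% were higher and 23% lower. From 24 h to 72 h, 17 were higher (20.2%) and 5 lower (5.95%), against 12% and 14.3%. From 72 h to 1 week, 16 were higher (19.05%) and 12 lower (14.3%), against 22.5% and 16.2%. When libraries were scaled by total reads the balance of this step turned, to 5 rises and 32 falls (7960 and 30030 over all peaks), and with TMM to 12 and 16 (15788 and 18623). Over the whole course from NSPs to 1 week, 32 were higher (38.1%) and 20 lower (23.8%), against 33.7% and 33.6%, with a median log2 change of 0.21 against 0.01 over all peaks. From NSPs to 72 h, 23 were higher (27.4%) and 16 lower (19.05%), against 28.3% and 30.9%. At gene starts, 2 of 22 were higher and 3 lower from NSPs to 24 h (all gene-start peaks 4.08% and 42.8%), 2 higher and 1 lower from 24 h to 72 h (7.07% and 23.5%), 4 higher and 3 lower from NSPs to 72 h (6.93% and 57.8%) and 12 higher and 3 lower from NSPs to 1 week (25.6% and 27%). Total-read scaling also gave 20 higher and 6 lower of the 84 from NSPs to 24 h and 38 and 8 from NSPs to 72 h. Over all peaks it gave 26104 higher and 12358 lower from NSPs to 24 h, in place of 21492 and 20490. From NSPs to 72 h it gave 32636 and 18504 over all peaks, in place of 25196 and 27509. Of the 31 peaks near a start or gene end, 2 were higher and 6 lower from NSPs to 24 h and 4 and 7 from NSPs to 72 h, and that scaling turned these to 5 and 1 and to 13 and 3. Counts over all gene-start peaks under that scaling were not made. These steps share libraries, so their counts are not independent. Without NSP replicate 1 the first step gave 18 higher and 13 lower (22425 and 21052 over all peaks) and the whole course 30 and 21 (30809 and 29909). Leaving out any 1 library lowered the 17 higher peaks of the step from 24 h to 72 h to between 8 and 12. Over all peaks it lowered 10688 to between 7404 and 9128.

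**Figure D4:**
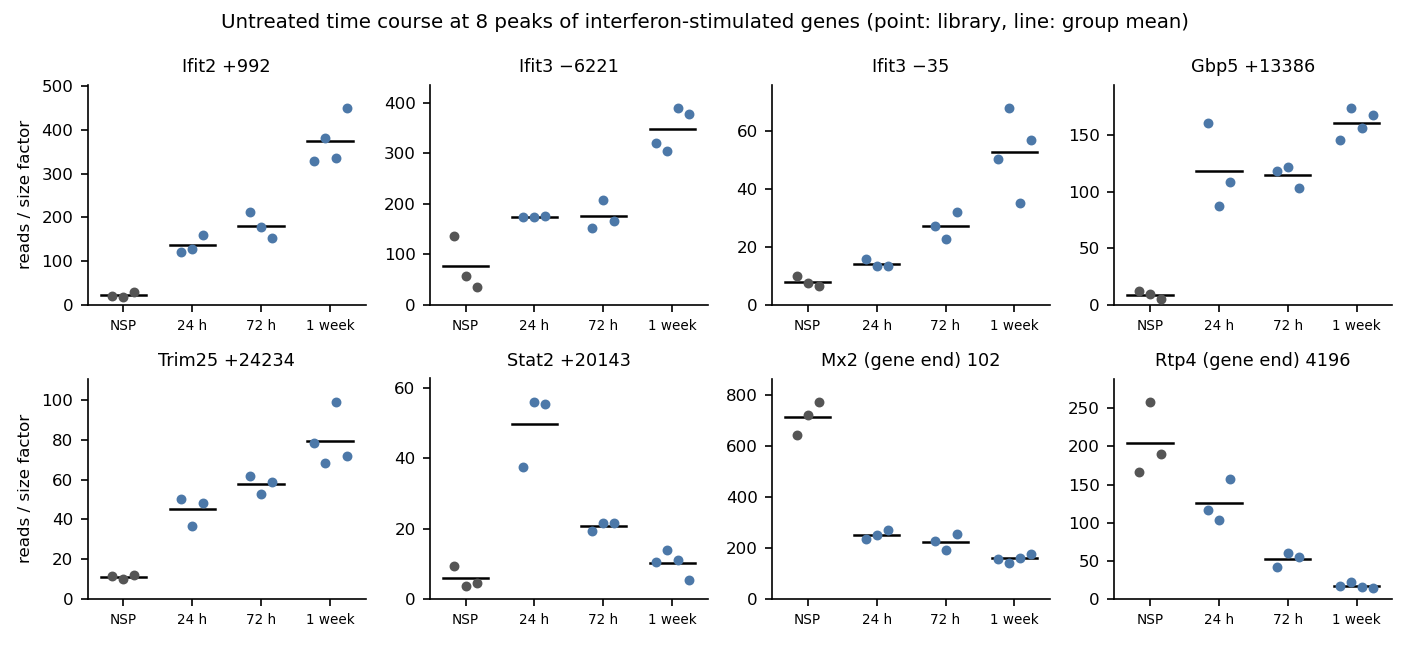
Reads divided by size factor per library (points) and group means (lines) at 8 peaks in NSPs and after 24 h, 72 h and 1 week of differentiation without TNF. The 3 IFIT peaks, Gbp5 and Trim25 rise from NSPs to 1 week, Stat2 +20143 is highest at 24 h, and Mx2 and Rtp4 fall.

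The IFIT cluster became more accessible after the NSP state. Of its 10 peaks, 6 were higher at 24 h than in NSPs and 8 at 1 week, and 0 were lower by limma-trend in either comparison. Over all peaks 24.2% and 33.7% were higher and 23% and 33.6% lower. The median log2 changes of the 10 peaks were 1.02 and 1.42. Without NSP replicate 1 the counts were 7 and 7. The peak 992 bases into Ifit2 (chr19:34551830-34552330) held 21.0, 18.4 and 30.6 in NSPs, 121, 128 and 160 at 24 h, 211, 178 and 152 at 72 h, and a lowest value of 329, a median of 357 and a highest of 449 at 1 week. No untreated group overlapped with NSPs, and the log2 changes were 2.52 ± 0.19 from NSPs to 24 h (adjusted p = 4.89e-12, limma-trend) and 1.05 ± 0.17 from 72 h to 1 week (adjusted p = 3.43e-05).

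The region shared by Ifit2 and Ifit3, 6221 bases upstream of Ifit3, held 136, 57.9 and 35.9 in NSPs and 174, 174 and 176 at 24 h, and its rise of 1.40 ± 0.25 became 1.91 without NSP replicate 1. The peak 9212 bases upstream of Ifit1 behaved alike, at 136, 33 and 43.9 in NSPs and 223, 212 and 195 at 24 h, with a rise of 1.83 ± 0.29 that became 2.43 without that library. Both remained calls either way. The Ifit3 start peak rose more slowly, from 6.64 to 9.93 in NSPs through 13.3 to 15.9 at 24 h to 35.2 to 67.8 at 1 week (log2 change from NSPs to 1 week 2.54 ± 0.32, adjusted p = 4.09e-08). In contrast, the Ifit1 start peak, which TNF raised, did not pass from NSPs to 24 h (−0.36 ± 0.22, adjusted p = 0.186).

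The largest rise was at Gbp5, 13386 bases into the gene (chr3:142510070-142510570), from 12.3, 9.89 and 5.32 in NSPs to 161, 87.0 and 108 at 24 h and 145 to 174 at 1 week. Its log2 change from NSPs to 24 h was 3.58 ± 0.24 (adjusted p = 7.3e-13, limma-trend), whereas TNF changed it by −0.09 ± 0.24 and −0.35 ± 0.24. The peak 24234 bases beyond the start of Trim25, the ubiquitin ligase that activates RIG-I, rose from 11.7, 9.89 and 12.0 to 50.1, 36.9 and 48.0 at 24 h (1.91 ± 0.25, adjusted p = 2.39e-07) and to 68.6 to 99.0 at 1 week. This Trim25 peak lies beyond the end of the gene and was assigned by distance alone. The peak 3022 bases from a gene end of Mx1 rose from 24 h (92.9 to 101) to 72 h (199 to 226), by 1.13 ± 0.17 (adjusted p = 1.2e-05). Its smaller change from NSPs to 24 h (0.45) was a call that was lost without NSP replicate 1 (0.30, adjusted p = 0.134).

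Other peaks became less accessible. The peak 102 bases from a gene end of Mx2 (chr16:97535933-97536433) fell from 643, 723 and 773 in NSPs to 235, 252 and 272 at 24 h (−1.49 ± 0.13, adjusted p = 1.99e-10, limma-trend) and to 140 to 177 at 1 week. The neighbouring Mx2 peak that TNF raised at 72 h, 951 bases from the gene end, fell by 0.35 ± 0.14 on the log2 scale at the first step (adjusted p = 0.0391). At Rtp4, a receptor-transporting protein with antiviral activity, the peak 4196 bases from a gene end held 166, 258 and 191 in NSPs and fell at every step to 13.9 to 21.8 at 1 week (−3.51 ± 0.24 over the whole course, adjusted p = 1.91e-13). The Ifi44 peak that TNF lowered also fell in the untreated course, from 122 to 174 in NSPs to between 22 and 42.9 at 1 week (−2.09 ± 0.23, adjusted p = 3.92e-09).

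Some peaks did not move in 1 direction. The peak 20143 bases into Stat2 held 9.35, 3.77 and 4.65 in NSPs, 37.6, 56.1 and 55.4 at 24 h, 19.3, 21.5 and 21.7 at 72 h and 5.36 to 14.0 at 1 week. Its rise at 24 h was 2.93 ± 0.46 (adjusted p = 6.57e-06, limma-trend), and the falls from 24 h to 72 h and on to 1 week did not pass (adjusted p = 0.0565 and 0.0627). With TNF at 24 h it held 18.6, 21.5 and 23.9, below every untreated library, without passing the test (−1.17 ± 0.46, adjusted p = 0.115). The peak 2637 bases into Ifih1, lowered by TNF, changed by 1.37 ± 0.18 from NSPs to 24 h, by −1.09 ± 0.18 from 24 h to 72 h and by 1.58 ± 0.16 from 72 h to 1 week (adjusted p = 2.24e-07, 4.53e-05 and 7.95e-08). The peak 9114 bases from a gene end of Parp9 held 2786 in NSP replicate 1 against 226 and 425 in the other NSP libraries, and its fall from NSPs to 1 week of −1.07 ± 0.46 (adjusted p = 0.0418) became −0.01 without that library.

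The start peaks of Stat2 and Eif2ak2 rose from 72 h to 1 week, Stat2 from 775 to 885 to 1532 to 1598 (0.90 ± 0.09, adjusted p = 3.54e-08, limma-trend) and Eif2ak2 from 257 to 260 to 374 to 429 (0.62 ± 0.11, adjusted p = 9.54e-05). In this step 59.6% of all gene-start peaks were higher and 4.52% lower, and of the 22 start peaks of the interferon-stimulated genes 7 (31.8%) were higher and 2 lower. When libraries were scaled by total reads instead, the median of all peaks in this step moved by −0.33, the Eif2ak2 call was lost (0.27, adjusted p = 0.052), and the Stat2 change was 0.56 (adjusted p = 3.56e-06). With cyclic loess the changes were 0.34 for Stat2 (adjusted p = 0.000713) and 0.36 for Eif2ak2 (adjusted p = 0.0153). Both therefore kept their direction, but their size depended on the scaling. Of the 31 peaks near a start or gene end, 9 rose and 3 fell in this step, against 2 and 11 when scaled by total reads.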

How the data were processed

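ATAC-seq libraries were compared in 6 groups taken from the labels. Per the submitters' processing notes, reads were handled with Trim Galore, Bowtie2, SAMtools and MACS2 on mm10. The deposited table holds a signal for every peak in every library, namely its reads after division by a size factor of the authors. Whole reads were recovered from the value steps (100% of values within 0.02 of a whole number) and gave the depths. The main test was limma-trend (limma 3.58.1, R 4.3.3) on log2(value + 1) with a mean per group over all 19 libraries, on 88919 peaks kept by filterByExpr with a minimum count of 10 (1235 left out), two-sided, with Benjamini-Hochberg adjustment. The code was tested on simulated data, where the share of false calls was above the nominal threshold, so calls with an adjusted p just under 0.05 are less certain than that threshold states. Over all peaks with TNF, the count test of edgeR 4.0.16 on the recovered reads called 6366 higher and 3597 lower at 24 h and 5199 and 5419 at 72 h, and DESeq2 1.42.0 was also run.

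Genes were placed with RefSeq GRCm38.p6, the assembly of mm10. Peak centres lay within 1000 bases of 59.9% of protein-coding starts, against 9.83% after a shift of 10000 bases. For genes without a strand in the reference tables, distances are from the nearer gene end. The peaks named were the one closest to each start, up to 12 called peaks per direction with the smallest p in each TNF comparison and up to 6 in each untreated step, and others were named after their values were seen. The members and gene lists were chosen with earlier results of these data known. Alternatives covered the pseudocount, filter, scaling, test, block, window and each library left out.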

Additional observations from a re-analysis of the deposited data

How the results depend on the processing

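The counts of called peaks moved by over 1.5 times under the following alternatives, and the cause was not tested except where fewer or more peaks or libraries entered by construction. With only the compared groups in the fit, 8 peaks were lower with TNF at each time. Over all peaks that fit called 5750 lower at 24 h and 7686 at 72 h, in place of 3136 and 4932. With a window of 2000 bases (53 peaks), 1 was lower at 24 h with TNF, 8 were higher from NSPs to 24 h, 10 higher from 24 h to 72 h, 13 higher from NSPs to 72 h and 11 lower from NSPs to 1 week. With a window of 25000 bases (139 peaks), TNF gave 14 and 17 higher peaks at 24 h and 72 h, and the higher and lower counts were 22 and 26 from NSPs to 24 h, 27 and 13 from 24 h to 72 h, 26 and 21 from 72 h to 1 week, 35 and 32 from NSPs to 72 h, and 51 and 42 from NSPs to 1 week. With total-read scaling, 6 were lower from NSPs to 24 h, 5 higher and 32 lower from 72 h to 1 week, and 38 higher and 8 lower from NSPs to 72 h. That scaling moved the median of all peaks by 0.19, −0.33 and 0.27 in these steps, and TMM moved it by −0.11 from 72 h to 1 week. The peak 5366 bases upstream of Bst2 reversed from 0.52 to −0.054 from 72 h to 1 week under cyclic loess. With 1 library left out, the higher and lower counts ranged from 4 to 6 and 1 to 2 (TNF at 24 h), 6 to 8 and 1 to 4 (TNF at 72 h), 11 to 18 and 10 to 13 (NSPs to 24 h), 8 to 12 and 4 to 6 (24 h to 72 h), 14 to 16 and 7 to 12 (72 h to 1 week), 21 to 24 and 11 to 20 (NSPs to 72 h), and 26 to 30 and 17 to 21 (NSPs to 1 week).

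Replicate numbers did not pair the samples: deviations of same-numbered libraries correlated at 0.034, 0.026 and 0.106 at 24 h and 0.014, −0.026 and 0.020 at 72 h. With a replicate block by title number, TNF gave 9 higher and 2 lower peaks at 24 h, and 10 and 4 at 72 h. By library name number the counts were 8 and 3, and 9 and 3. Both blocks lost the 24 h calls of the Ifih1 peaks at 2637 and 58432 bases and of the Isg15 peak at 7824 bases (adjusted p 0.051 to 0.0655). The block by library name also lost the Rsad2 peak at 24 h (0.0554) and, at 72 h, the Parp14 (0.0952) and Ifi35 (0.11) peaks. Peaks with few reads (8 had fewer than 10 in a library, the lowest 3) limit the precision of their folds.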
